A study of Mus musculus with 2 samples.

Results

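Mono 1 is the larger of 2 populations that the authors named Mono among single cells of the mouse aorta, and its cells were compared here by how much MHC class II transcript they held. The cells were chosen by their measured UMIs: for each cell the UMIs (unique molecular identifiers, each a captured transcript) of H2-Aa, H2-Ab1, H2-Eb1 and Cd74 were added and expressed per 10000 UMIs of that cell. Within each library, cells above the 67th percentile of this score are called MHC II-high, cells at or below the 33rd percentile MHC II-low, and the rest middle. Of 5451 cells in all, 443 were Mono 1, 181 in library 1 and 262 in library 2. They gave 147 MHC II-high cells (60 and 87 per library), 147 MHC II-low cells (60 and 87) and 149 middle cells (61 and 88).

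The data are droplet libraries (10x v2), 1 for each of 2 aortas. Both mice were C57/BL6 females of 12 weeks, labelled WT and fed chow, and high and low cells came from the same 2 vessels, so that every condition is shared between them. Each vessel, stripped of perivascular fat, was digested with collagenases, hyaluronidase and DNase for 1 h at 37 °C and treated with ACK buffer, which lyses red cells. The libraries carry the numbers 1 and 2 of their barcodes, because which of them is the aorta labelled WT1 and which WT3 is not given in the sources used here.

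MHC class II molecules show peptides from engulfed material to CD4+ T cells. H2-Aa and H2-Ab1 encode the chains of H2-A and H2-Eb1 the beta chain of H2-E; Cd74 is the invariant chain that guides them to endosomes, and H2-DM exchanges its last fragment for a peptide. Transcription of this group depends on Ciita, a coactivator that joins factors bound at an X box and a Y box near each gene's start. Macrophages in the outer arterial wall are known to include cells with Lyve1, Folr2 and Mrc1 and little MHC class II, which are long-lived and self-maintaining, and MHC class II-rich cells, some with Ccr2, that draw more on blood monocytes.

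Promoters of 3 genes are shown because they carry the same pair of letter groups in genes that fixed the score (H2-Aa, H2-Eb1) and in H2-DMb1, 1 of the 2 H2-DM genes outside it that differed between high and low cells. Each run is the 150 bases before the annotated start, from RefSeq's promoters on GRCm38.p6, and the capitals mark GNAACT, letters within the X box, followed by TGATTGG, which holds the reversed CCAAT of the Y box.
H2-DMb1 (chr17:34153041-34153190, plus strand): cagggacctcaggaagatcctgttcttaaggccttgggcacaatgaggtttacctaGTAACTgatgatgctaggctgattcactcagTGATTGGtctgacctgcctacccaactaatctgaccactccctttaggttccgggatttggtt
H2-Aa (chr17:34287824-34287973, minus strand): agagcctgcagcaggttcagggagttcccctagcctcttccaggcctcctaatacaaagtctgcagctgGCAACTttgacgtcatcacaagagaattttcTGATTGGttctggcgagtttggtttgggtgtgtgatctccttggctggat
H2-Eb1 (chr17:34305717-34305866, plus strand): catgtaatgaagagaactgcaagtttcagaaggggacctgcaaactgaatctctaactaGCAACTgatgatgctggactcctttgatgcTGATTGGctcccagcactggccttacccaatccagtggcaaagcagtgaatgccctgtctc
The 2 groups start 31 bases apart in H2-DMb1, 31 in H2-Aa and 30 in H2-Eb1. GNAACT followed by TGATTGG on the gene's strand at 20 to 40 bases was found in 28 of 32851 RefSeq promoters (0.0852%), each covering 250 bases before to 50 after a start. Among the 47 genes that differed between high and low cells, 36 had a promoter in the table, and 1 of the 36, H2-DMb1, held the pair. Searched alone on both strands, TGATTGG was in 7.82% of all promoters and in 2 of the 36, and GNAACT in 42.8% of all and in 24 of the 36 (66.7%). The promoter of H2-DMa, the other H2-DM gene, held GNAACT but not the pair. The letters were chosen after these sequences had been read, and a match describes letters, not a bound site. H2-Ab1 had no entry among these promoters, and no promoter of Cd74 is shown. Among the score genes the pair is described for H2-Aa and H2-Eb1 only.

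The leading markers of these cells were those of macrophages, although the authors named them Mono. The 10 macrophage markers (Csf1r, Adgre1, Cd68, Fcgr1, Mertk, C1qa, C1qb, C1qc, Mrc1 and Lyz2) summed to 39420 and 36140 CPM (UMIs of a gene scaled to a common library total) in Mono 1 of libraries 1 and 2, with none at 0, against 15050 and 10680 in Mono 2 and 220.5 and 192.8 in the smooth muscle population VSMC. Ly6c2 and Chil3, which mark classical monocytes, had 0 UMIs in both the high and the low cells. The population is called here by its deposited name, Mono 1. No Mono 1 barcode occurred in both libraries, against 12 barcodes over all cells.

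The score spread over a wide, unbroken range. Its median was 490.9 per 10000 UMIs in the high cells of library 1 (range 216.4 to 1065) and 393.6 in those of library 2 (167.1 to 1136). In the low cells the medians were 5.277 (0 to 21.78) and 3.016 (0 to 11.5), and 12 and 18 of the low cells held no UMI of the 4 genes. These values chose the cells and are a description with no test. At the upper edge the nearest cells scored 216.4 (high) and 210.4 (middle) in library 1 and 167.1 and 162.4 in library 2. At the lower edge they scored 21.78 (low) and 21.89 (middle), and 11.5 and 12.13. The groups are ranges of 1 score, and no cell type was assigned from them.

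**Figure D1:**
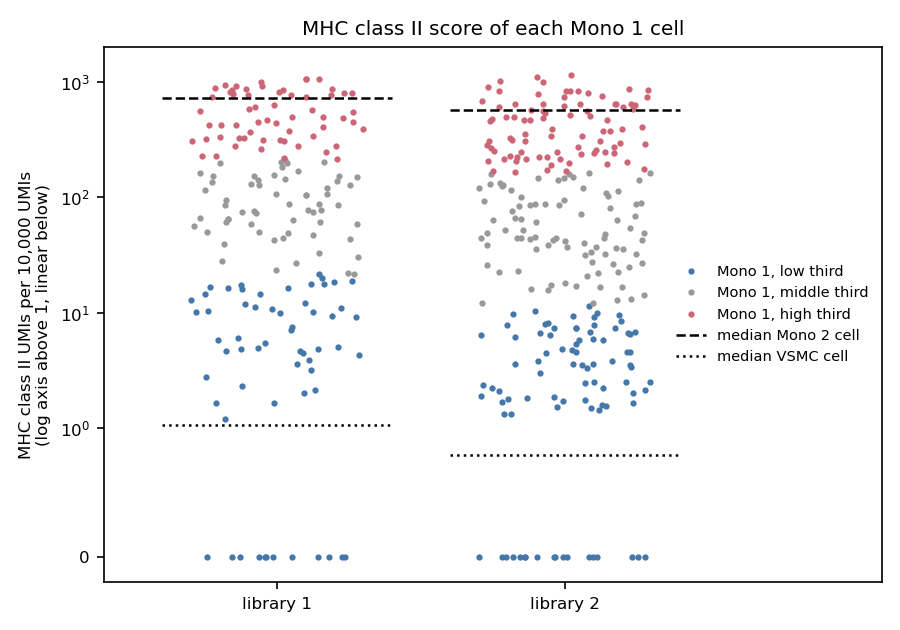
MHC class II score of every Mono 1 cell (UMIs of H2-Aa, H2-Ab1, H2-Eb1 and Cd74 per 10000 UMIs, log axis above 1 and linear below) in libraries 1 and 2, coloured by low, middle and high; dashed and dotted lines are the medians of Mono 2 and VSMC cells. The cells run from 0 to 1065 and 1136 with no gap at the edges of the groups, and the Mono 2 medians of 721.02 and 574.48 lie within the high cells.

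The high Mono 1 cells overlapped Mono 2 in score. The Mono 2 median was 721.02 in library 1 and 574.48 in library 2, and that of VSMC cells, which should lack these genes, was 1.07 and 0.79. The invariant chain Cd74 made up a smaller part of the 4 genes' UMIs in high cells (53.0% and 51.3% by library) than in middle cells (62.5% and 65.4%). H2-Eb1 made up 13.9% and 15.2% in high cells and 8.7% and 8.5% in middle cells. Each cell's UMIs were also split at random in 2 parts, and the groups were cut on 1 of them. In the part not used for scoring, Cd74 stood at 282.0 and 230.6 per 10000 UMIs in high cells and at 5.57 and 2.441 in low cells, and H2-Aa at 83.57 and 74.81 against 0.5222 and 0.5231.

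Depth differed in opposite directions in the libraries. The median UMIs per cell were 3649 (high), 3698 (middle) and 3251.5 (low) in library 1, and 4274, 3927 and 5205 in library 2. Genes detected followed the same order for high and low cells, with medians of 1455 and 1419 in library 1 and 1624 and 1985 in library 2. The mitochondrial share was lower in high than in low cells of each library (2.956% against 3.75%, and 3.427% against 3.794%), and the share of ribosomal protein genes was higher (14.23% against 12.93%, and 18.23% against 15.8%). These shares were not tested, and their part in the results below was not tested. Scrublet marked 2 of the high, 6 of the middle and 6 of the low cells as doublets.

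UMIs were summed per library and group, without the 4 score genes, and compared with edgeR's quasi-likelihood test with the library as a block and Benjamini-Hochberg adjustment. With the score genes included, the cells held 233180 and 415158 UMIs in high, 237869 and 360877 in middle and 228273 and 473788 in low cells. Of 4556 genes tested, 47 (1.03%) differed at an adjusted p under 0.05, 29 higher in high cells (0.637%) and 18 lower (0.395%). All 47 had the same direction in both libraries, which a call from these same sums favours. In 44 of them the 2 high sums did not overlap the 2 low sums, as was the case for 36.2% of all genes tested. In 36 of the 47 the middle cells lay between low and high cells in each library, against 14.9% of all genes tested. A higher sum can come from more cells with the transcript or from more of it per cell, and a sum alone does not tell these apart. DESeq2 on the same sums called 4 of the 47, H2-DMa, H2-DMb1, Clec4b1 and Cd52. Without the library block 10 genes were called, H2-DMa and H2-DMb1 among them.

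**Figure D2:**
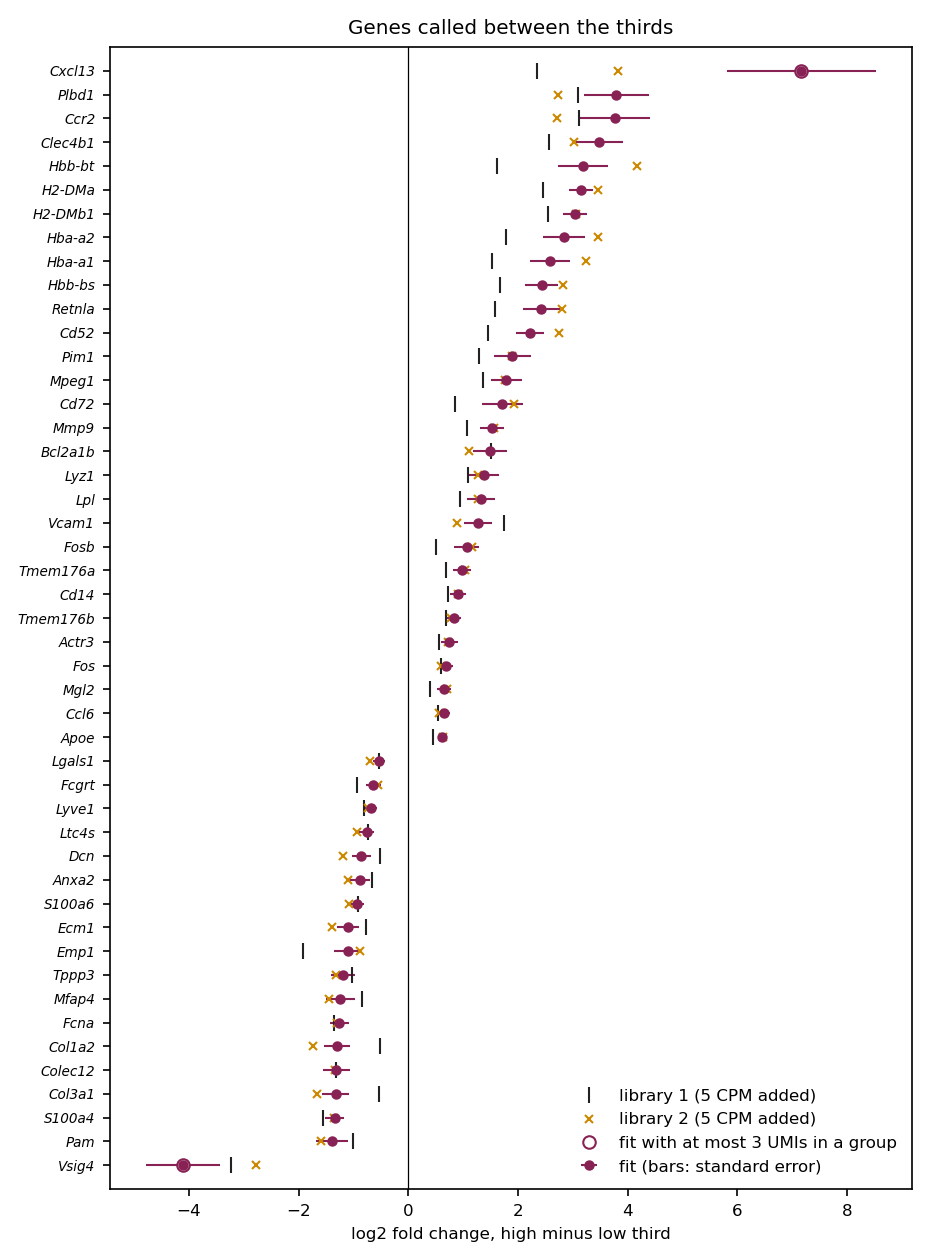
Log2 fold change, MHC II-high minus MHC II-low Mono 1 cells, of the 47 genes with an adjusted p under 0.05. Filled points and bars are the fit and its standard error, ticks and crosses the 2 libraries. The library values have 2 UMIs, scaled to library size, added to each sum, not the 5 CPM written in the key. All 47 lie on the same side of 0 in both libraries; the open points, Cxcl13 and Vsig4, have at most 3 UMIs in a group, and their fitted size is not read.

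Both measured chains of H2-DM, the editor of class II peptides, rose with the score although neither entered it. H2-DMa stood at 140.3 and 59.12 CPM in low cells (libraries 1 and 2), 284.4 and 161.8 in middle cells and 811.5 and 695.8 in high cells. The difference between high and low was 3.15 ± 0.22 on the log2 scale (standard error; adjusted p = 2.787e-06), and every high value lay above every middle and low one. H2-DMb1 stood at 74.53 and 40.12 CPM in low, 165.5 and 92.05 in middle and 480.6 and 365.6 in high cells, a log2 difference of 3.04 ± 0.22 (adjusted p = 2.787e-06). VSMC cells held 6.379 and 3.556 CPM of H2-DMa and 14.44 and 10.27 of H2-DMb1, and Mono 2 held 2240 and 1706, and 1335 and 974.2, above the high Mono 1 cells. These 2 genes were called in all 20 of the alternative fits in which they could be tested, with log2 differences from 2.46 to 3.95 for H2-DMa and from 2.37 to 3.80 for H2-DMb1 over all alternatives. H2-DMb2, a close copy of H2-DMb1, had 2 UMIs in low and 3 in high cells, and how reads shared by the copies were counted is not given in the sources used here.

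H2-DMa was detected in more of the high cells. Detection also rises with the level per cell. These shares therefore do not tell more cells with the transcript from more of it per cell. With each cell thinned to 1300 UMIs, H2-DMa was found in 68.3% of high cells of library 1 (exact 95% binomial interval 55.0 to 79.7) and 58.6% of those of library 2 (47.6 to 69.1), against 13.3% (5.9 to 24.6) and 4.6% (1.3 to 11.4) of low cells. Before thinning the numbers were 48 of 60 and 81 of 87 cells against 19 of 60 and 20 of 87. Thinned VSMC cells gave 1.0% and 0.3% (median depth before thinning 4648 and 7154 UMIs), and no cell was too shallow to be thinned. The intervals on shares count single cells of 1 library as independent and do not measure the spread between aortas. Intervals on UMIs cover counting error only.

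The rest of the class II machinery did not pass the test. Of 14 genes tested in a list of processing and presentation genes outside the score, 2 were called, both of them H2-DM chains. The list's median log2 difference was 0.18 beside 0.00 for all genes tested. An unadjusted p under 0.05 was found for 6 of the 14, the 2 called genes included. The protease Ctss, which trims Cd74, stood at 1109 and 954.4 CPM in low and 1310 and 1127 in high cells (0.33 ± 0.12, adjusted p = 0.309). The protease Lgmn stood at 1144 and 1138 CPM in low and 920.3 and 867.3 in high cells, and Cd86, a costimulatory ligand, at 179.7 and 149.9 against 190.4 and 131.1. Cd83, which keeps class II molecules at the cell surface, was at 184.1 and 71.79 CPM in low and 222.1 and 259.7 in high cells (1.23 ± 0.34, adjusted p = 0.143). The transactivator Ciita was too sparse for the fit: 11 UMIs in high and 2 in low cells, a ratio of 6.253 with a counting interval of 1.365 to 58.06. The antagonist H2-Ob had 5 UMIs in high cells and 0 in low cells, and H2-Oa 1 and 0. None of the 18 class I presentation genes tested was called by edgeR or DESeq2 (3 had an unadjusted p under 0.05), and their median was 0.23. The peptide transporter Tap1 was at 17.54 and 29.56 CPM in low and 90.67 and 40.34 in high cells (1.27 ± 0.45, adjusted p = 0.302), and the immunoproteasome subunit Psmb8 at 228.0 and 198.5 against 367.2 and 259.7 (0.61 ± 0.19, adjusted p = 0.242).

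**Figure D3:**
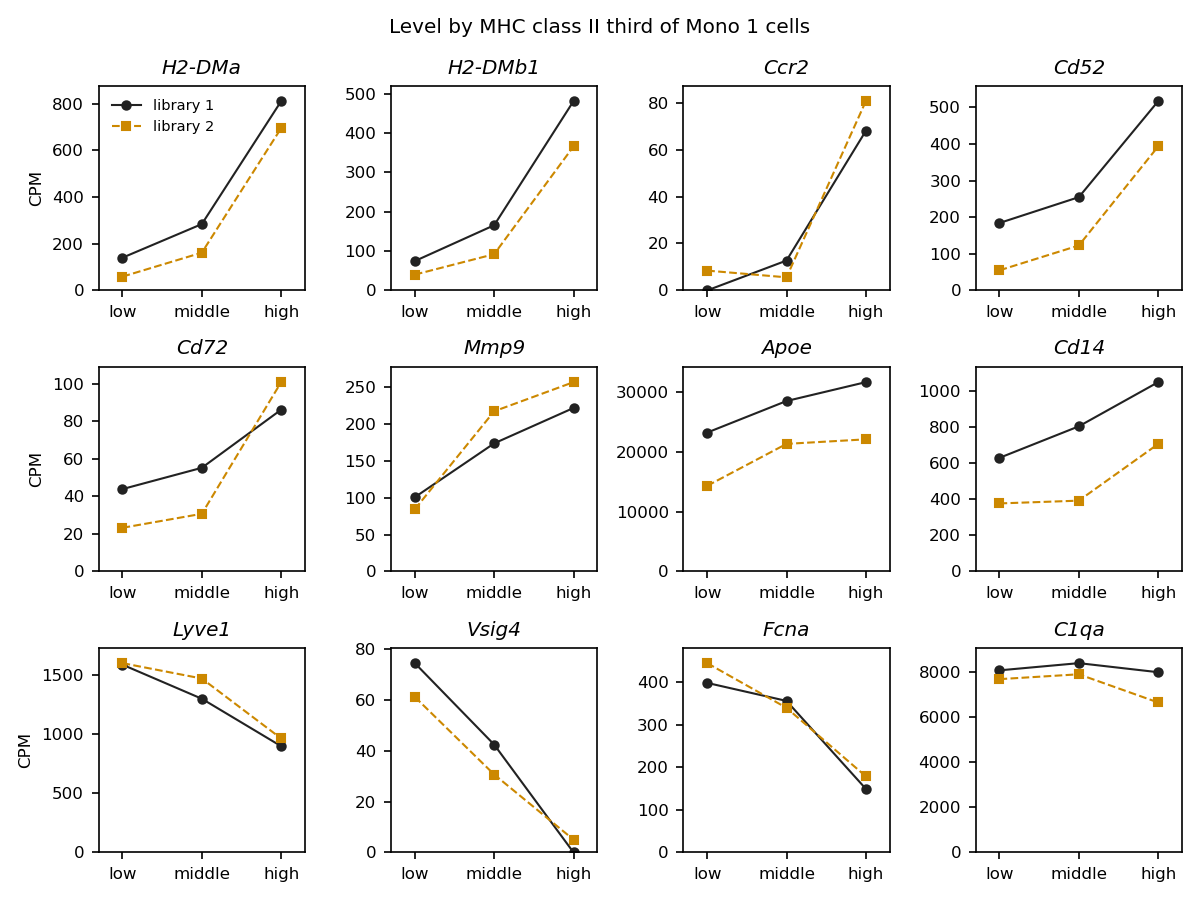
Level of 12 genes outside the score (CPM, linear axes from 0) in low, middle and high Mono 1 cells; circles are library 1 and squares library 2. H2-DMa climbs from 140.3 and 59.12 to 811.5 and 695.8 CPM and Lyve1 declines from 1587 and 1600 to 897.7 and 963.1, while C1qa starts at 8089 and 7698 and ends at 8006 and 6661.

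Genes associated with monocyte-derived macrophages split. Of 15 tested, 3 were higher in high cells (Ccr2, Cd52 and Cd72), 2 lower (S100a4 and S100a6) and 10 were not called, with a median of 0.09. Ccr2, the receptor that draws monocytes out of marrow and into tissue, stood at 0 and 8.446 CPM in low, 12.73 and 5.579 in middle and 68.01 and 80.68 in high cells (3.77 ± 0.64, adjusted p = 0.00754). Its UMIs were few: 15 and 32 in high cells and 0 and 4 in low cells, the 4 all in 1 cell. The call was lost when the 10% of cells with the fewest and the 10% with the most UMIs were left out (log2 difference 3.15). In all, 21 Mono 1 cells held a Ccr2 UMI, 17 of them high, 3 middle and 1 low. Of the 17, 11 held Lyve1, as did 37 of 60 and 65 of 87 of all high cells by library, and 16 held Cd52, as did 38 of 60 and 44 of 87.

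Cd52, a small surface glycoprotein of leukocytes, was detected in more cells than Ccr2. It stood at 184.1 and 54.9 CPM in low, 254.7 and 122.7 in middle and 516.8 and 393.3 in high cells (2.22 ± 0.25, adjusted p = 0.000536). In thinned cells it was found in 24 of 60 and 28 of 87 high cells and 5 of 60 and 6 of 87 low cells, against 0.6% and 0.9% of VSMC cells. Cd72, an inhibitory receptor known best from B cells, stood at 43.84 and 23.23 CPM in low and 86.14 and 100.8 in high cells (1.72 ± 0.38, adjusted p = 0.0397), and the B cell markers beside it summed to 17.54 and 12.67 CPM in low and 27.2 and 10.08 in high cells. Cd72 was called in 8 of the 18 alternative fits in which it could be tested. The calcium-binding proteins S100a4 and S100a6 ran the other way. S100a4 stood at 298.1 and 599.6 CPM in low and 95.21 and 231.9 in high cells (-1.34 ± 0.18, adjusted p = 0.00125), and S100a6 at 758.4 and 1309 against 399.0 and 612.6 (-0.94 ± 0.14, adjusted p = 0.00193). VSMC cells held 2281 and 2434 CPM of S100a6, more than either group. Mono 2 held 791.7 and 1110 CPM of S100a4 and 2375 and 2657 of S100a6, also more than either group.

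Several other genes of myeloid cells rose steeply from very low levels. Plbd1, a phospholipase B-like protein, stood at 4.384 and 6.334 CPM in low and 104.3 and 68.07 in high cells (3.79 ± 0.59, adjusted p = 0.00356). Clec4b1, a C-type lectin receptor of myeloid cells, stood at 13.15 and 8.446 CPM in low and 122.4 and 100.8 in high cells (3.48 ± 0.43, adjusted p = 0.000648), and it was called in all 18 alternative fits in which it could be tested. The pore-forming Mpeg1, which macrophages use against engulfed bacteria, stood at 61.38 and 31.67 CPM in low and 172.3 and 118.5 in high cells (1.79 ± 0.28, adjusted p = 0.00344). In Mono 2 these 3 genes stood higher still, Plbd1 at 580.1 and 451.4, Clec4b1 at 485.2 and 403.9 and Mpeg1 at 277.3 and 246.2 CPM. The kinase Pim1 (1.90 ± 0.34) and the survival gene Bcl2a1b (1.49 ± 0.31), which has close copies, were also higher. Of the 18 alternative fits in which each could be tested, Pim1 was called in 13 and Bcl2a1b in 8. The paired membrane genes Tmem176a and Tmem176b rose from 416.5 and 320.9 to 675.5 and 663.1 CPM and from 784.8 and 671.4 to 1265 and 1162 CPM.

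Dendritic cell genes were sparse in Mono 1. Of 23 members 4 had enough UMIs for the test, and none was called by edgeR or DESeq2 (median 0.43; 1 had an unadjusted p under 0.05). All 4 had a positive log2 difference. The largest was that of Irf8, at 56.99 and 57.01 CPM in low and 95.21 and 83.2 in high cells (0.71 ± 0.28, adjusted p = 0.406). Cd209a, a lectin of monocyte-derived dendritic cells, stood at 17.54 and 35.89 CPM in low and 40.8 and 35.3 in high cells, and was highest in the middle cells (76.41 and 119.9), against 521.7 and 473.0 in Mono 2. Over high and low cells together, Flt3, the growth factor receptor that defines conventional dendritic cells, had 1 UMI, and Ccr7 and Itgae had 0. Itgax was too sparse for the test, with 0 UMIs in low and 10 in high cells, all 10 in library 2. The 10 dendritic markers summed to 56.99 and 57.01 CPM in low and 95.21 and 70.59 in high cells. With the cells carrying 2 or more UMIs of such markers left out (9 of the high and 8 of the low), 52 genes were called. Of the 47, 45 were among them. Cells with 1 such UMI stayed in.

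Genes of Lyve1 resident macrophages leaned the opposite way. Of 28 tested, 5 were lower in high cells (Lyve1, Fcna, Ltc4s, Fcgrt and Vsig4), 1 was higher (Mgl2) and 22 were not called. Of all genes tested, 1.03% were called. The list's median log2 difference was -0.29, with 20 members below 0 and 8 above. In either direction, 19 of the 28 had an unadjusted p under 0.05, as did 473 of all 4556 genes. Cd209g, not called, ran opposite to most, at 114.0 and 76.01 CPM in low and 181.3 and 181.5 in high cells (1.11 ± 0.26, adjusted p = 0.057). Lyve1, the hyaluronan receptor that names these cells, stood at 1587 and 1600 CPM in low, 1299 and 1470 in middle and 897.7 and 963.1 in high cells (-0.69 ± 0.12, adjusted p = 0.00754). Many high cells still held it: after thinning, 43.3% and 57.5% of high cells held a Lyve1 UMI, against 76.7% and 71.3% of low cells and 1.0% and 0.8% of VSMC cells. The groups did not overlap for Lyve1. It was called in 15 of the 21 alternative fits in which it could be tested. Among the fits that lost the call were DESeq2, the fit without the library block, the median split and the random split of UMIs.

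Fcna, a ficolin that binds microbial sugars, stood at 399.0 and 445.5 CPM in low and 149.6 and 179.0 in high cells (-1.26 ± 0.17, adjusted p = 0.00161). Ltc4s, leukotriene C4 synthase, stood at 951.3 and 755.9 against 571.2 and 393.3 CPM (-0.76 ± 0.13), and Fcgrt, the neonatal Fc receptor that recycles IgG, at 1122 and 988.1 against 584.8 and 675.7 (-0.64 ± 0.14). Vsig4, a complement receptor of tissue-resident macrophages, was found mostly in low and middle cells. It had 17 and 29 UMIs in low cells and 0 and 2 in high cells, a ratio of 20.23 with a counting interval of 5.291 to 172.0 (adjusted p = 0.00502). All 26 Mono 1 cells with a Vsig4 UMI also held Lyve1, Mrc1 and C1qa; 18 of them were low, 6 middle and 2 high. The lectin Mgl2 stood at 1061 and 711.5 CPM in low and 1405 and 1170 in high cells (0.65 ± 0.13, adjusted p = 0.0272), and its close copy Clec10a can share its reads.

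Several genes that define resident macrophages were not called. Folr2, a folate receptor, stood at 1543 and 1489 CPM in low and 1183 and 1061 in high cells (-0.35 ± 0.12, adjusted p = 0.295), and F13a1, a coagulation factor subunit, at 2595 and 2160 against 1709 and 1561 (-0.45 ± 0.12, adjusted p = 0.137). In each the high values lay below the low ones, and neither passed the test. Timd4, a receptor for dying cells that marks long-lived macrophages, stood at 192.9 and 154.1 CPM in low and 131.5 and 37.82 in high cells (-1.15 ± 0.29, adjusted p = 0.106). The mannose receptor Mrc1 had log2 difference -0.25 ± 0.12 and the haemoglobin scavenger receptor Cd163 -0.09 ± 0.13, and neither was called (adjusted p = 0.490 and 0.886). Nearly every high cell held Mrc1: 56 of 60 and 86 of 87 before thinning, as against 57 and 86 low cells.

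**Figure D4:**
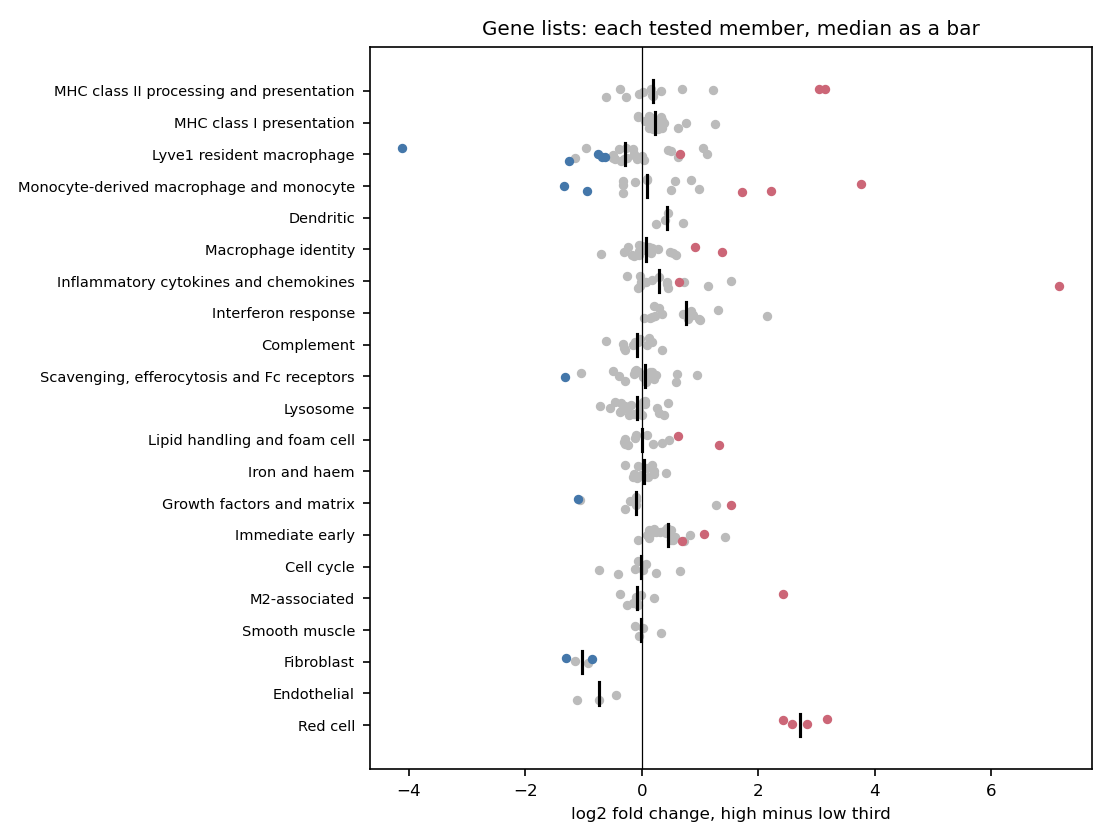
Log2 difference, MHC II-high minus MHC II-low Mono 1 cells, of every tested gene in 21 lists (points; red called higher, blue called lower, grey not called), with each list's median as a bar. The Lyve1 resident list lies to the left with a median of -0.29 and the interferon list to the right with 0.75, while the class II list is centred near 0 (0.18) with both H2-DM chains apart; the points beyond -4 and 7, Vsig4 and Cxcl13, have at most 3 UMIs in a group.

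Most genes of macrophage identity were not called. Of 21 tested, Cd14 and Lyz1 were higher and 19 were not called (median 0.08). Csf1r, the receptor for the macrophage growth factor, had a log2 difference of -0.05 ± 0.12, Adgre1 (F4/80) 0.02 ± 0.15 and Cd68 0.14 ± 0.15. The complement gene C1qa, among the most abundant, stood at 8089 and 7698 CPM in low and 8006 and 6661 in high cells (-0.03 ± 0.08). Cd14, the co-receptor for bacterial lipopolysaccharide, stood at 631.3 and 377.9 CPM in low and 1052 and 708.4 in high cells (0.91 ± 0.15, adjusted p = 0.00502). Lyz1 was at 52.61 and 48.56 CPM in low and 122.4 and 123.5 in high cells (1.38 ± 0.28, adjusted p = 0.0265), and reads of its abundant neighbour Lyz2 could be counted for it. None of 12 complement genes or 25 lysosome genes was called by edgeR or DESeq2 (medians -0.09 and -0.07; 1 and 5 had an unadjusted p under 0.05). Of 20 scavenging and Fc receptor genes 1 was, the scavenger receptor Colec12, lower in high cells (171.0 and 179.5 against 63.47 and 68.07 CPM; -1.31 ± 0.24, adjusted p = 0.0119).

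Some secreted proteins and lipid genes rose. Apoe, the apolipoprotein that macrophages use to carry cholesterol away, was among the most abundant genes, at 23230 and 14320 CPM in low and 31670 and 22100 in high cells (0.62 ± 0.07, adjusted p = 0.000558). The libraries differed as much as the groups, so that the values overlapped across libraries although high exceeded low in each. Lpl, lipoprotein lipase, stood at 56.99 and 59.12 CPM in low and 117.9 and 148.7 in high cells (1.33 ± 0.26, adjusted p = 0.0182). The other 10 of 12 lipid genes were not called, and the list's median was 0.00. Mmp9, a gelatinase, stood at 100.8 and 84.46 CPM in low and 222.1 and 257.2 in high cells (1.52 ± 0.22, adjusted p = 0.00184), above Mono 2 (14.59 and 8.64 CPM). The adhesion molecule Vcam1 rose from 43.84 and 124.6 to 167.7 and 234.5 CPM (1.27 ± 0.26, adjusted p = 0.0251).

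Retnla, a secreted protein induced by interleukin-4, was called but did not follow the score in both libraries. It stood at 815.4 and 1427 CPM in low, 4521 and 3947 in middle and 2453 and 10010 in high cells (2.42 ± 0.34, adjusted p = 0.00161), so the middle cells were the highest in library 1. After thinning, 12 of 60 cells held it in both high and low cells of library 1, and 26 against 13 of 87 in library 2, with 4.9% and 4.3% in VSMC. The call was lost without the 5% of cells richest in stromal transcripts (1.56), without the library block (2.57) and with the outer 20% of cells on each side in place of these groups (2.04). No other of 9 M2-associated genes was called.

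Among cytokines and chemokines, 2 of 17 were called, both higher. Ccl6, a chemokine of myeloid cells, stood at 1754 and 1784 CPM in low and 2571 and 2645 in high cells (0.65 ± 0.11, adjusted p = 0.00913). Cxcl13, the chemokine that draws B cells, had 8 and 24 UMIs in high cells and 0 and 0 in low cells, which is at least 12.13-fold higher against 3 UMIs over the low cells of both libraries (adjusted p = 0.0182). Most of it was in single cells: 1 cell held 7 of the 8 UMIs and another 19 of the 24, and without these cells the high levels were 4.643 and 12.79 CPM. Tnfaip3, a brake on NF-kB signalling, was at 21.92 and 25.34 against 58.94 and 70.59 CPM (1.54 ± 0.38, adjusted p = 0.0895). Il1b was too sparse for the test, with 5 UMIs in low and 15 in high cells.

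Interferon response genes lay above 0 without a single call. All 16 tested had a positive log2 difference, with a median of 0.75 beside 0.00 for all genes, and 0 passed the adjusted threshold with edgeR or with DESeq2, while 8 had an unadjusted p under 0.05. Before TMM scaling 15 of the 16 were higher in high cells of library 1 and 10 in those of library 2. Isg15, a ubiquitin-like antiviral protein, stood at 56.99 and 67.57 CPM in low and 235.8 and 57.99 in high cells, and Ifit3, which binds foreign RNA, at 43.84 and 2.111 against 176.8 and 15.13 (2.15 ± 0.49, adjusted p = 0.0517). The guanosine triphosphatase Ifi47 was at 30.69 and 33.78 against 86.14 and 70.59 CPM (1.31 ± 0.35, adjusted p = 0.137).

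Immediate early genes, which dissociation at 37 °C is known to induce, leaned the same way. Of 22 tested, Fos and Fosb were called and 21 had a positive log2 difference, with a median of 0.45. Before TMM scaling 13 of the 22 were higher in high cells of library 1 and 21 in those of library 2. Fos stood at 920.7 and 1410 CPM in low and 1401 and 2148 in high cells (0.69 ± 0.12, adjusted p = 0.00913), and Fosb at 109.6 and 111.9 against 158.7 and 254.6 (1.07 ± 0.22, adjusted p = 0.0306). The Fos values overlapped between the groups across libraries, though not within one. Junb (0.52), Egr1 (0.50) and Dusp1 (0.38) were not called. High and low cells came from the same digested aortas, and the part of this in the other differences was not tested.

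The 4 haemoglobin genes, which red cells express, were all called higher in high cells, and a few cells held the difference. Hbb-bs stood at 3038 and 1343 CPM in low and 9761 and 9548 in high cells (2.43 ± 0.30, adjusted p = 0.000648); Hba-a1, Hba-a2 and Hbb-bt gave 2.59, 2.84 and 3.18, and reads of near-identical copies can be exchanged among them. The 4 genes summed to 4630 UMIs in the high cells of library 1, of which 1 cell held 1946, and to 8359 in those of library 2, of which 1 cell held 7631. The median haemoglobin UMIs per cell were 11 in high and 11.5 in low cells of library 1 and 8 and 9 in library 2, and VSMC cells held a median of 14 and 10. Without the 5% of cells richest in haemoglobin the log2 differences were 0.20 for Hbb-bs, 0.18 for Hba-a2, -0.01 for Hba-a1 and -0.01 for Hbb-bt, none called. In that fit 43 of the 47 genes were called, all but the 4 haemoglobin genes.

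**Figure D5:**
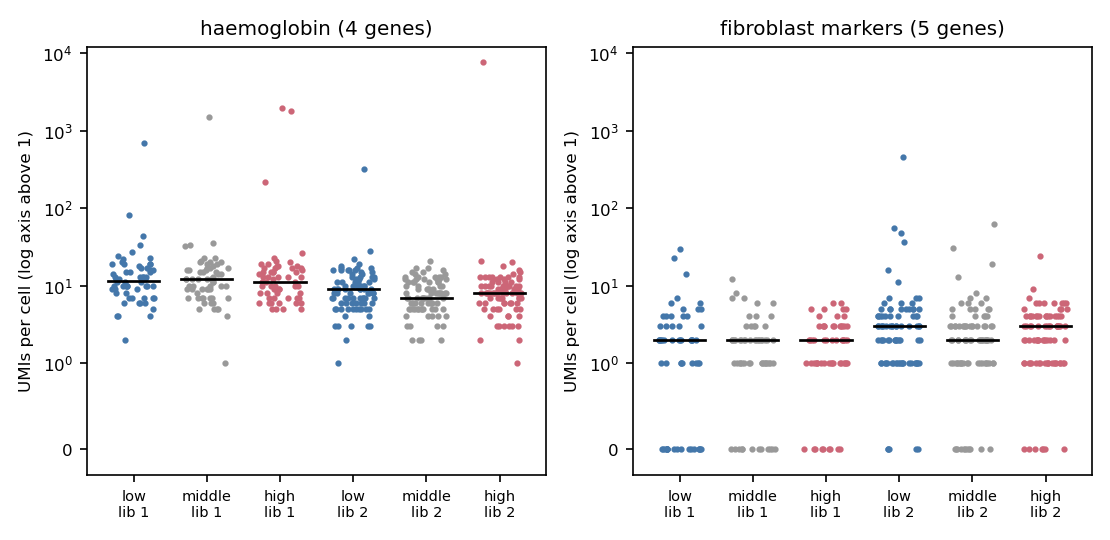
UMIs per Mono 1 cell (log axis above 1) of the 4 haemoglobin genes and the 5 fibroblast markers in low, middle and high cells of each library; each point is a cell and black bars are medians. The haemoglobin medians lie between 7 and 12 in all 6 groups while single high cells reach 1946 and 7631 UMIs, and 1 low cell of library 2 reaches 457 UMIs of fibroblast markers.

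Transcripts of fibroblasts were likewise uneven. Of 4 fibroblast markers tested, Col1a2 and Dcn were lower in high cells, and the list's median was -1.03. Col1a2 stood at 206.1 and 591.2 CPM in low and 140.5 and 174.0 in high cells (-1.30 ± 0.24, adjusted p = 0.0119). A single low cell of library 2 held 457 of its group's 845 fibroblast marker UMIs, and the medians per cell were 2 and 3 in low as in high cells. The collagen Col3a1 (-1.32 ± 0.25), with 187 of 273 UMIs in 1 low cell, overlapped between groups. Without the 5% of cells richest in smooth muscle, fibroblast and endothelial markers, the log2 differences of Col3a1, Col1a2 and Dcn turned to 0.42, 0.34 and 0.20, and the matrix protein Mfap4 (-0.35) and the peptide-amidating enzyme Pam (-1.25) were no longer called. Fosb, Lyz1, Bcl2a1b, Ccl6 and Retnla, all called higher in high cells when every cell was kept, also lost the call there. In that fit 37 of the 47 genes were called, S100a4 and S100a6 among them, at -1.56 and -1.05. The 4 smooth muscle and 3 endothelial markers tested were not called by edgeR or DESeq2 (0 and 1 had an unadjusted p under 0.05). Of these, smooth muscle markers summed to 1337 and 774.9 CPM in low and 1047 and 839.5 in high cells, and endothelial markers to 83.3 and 183.7 against 81.61 and 83.2.

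Of the called genes not yet described, Actr3, a subunit of the actin-branching Arp2/3 complex, was higher in high cells (0.75 ± 0.16, adjusted p = 0.0326), and the others were lower. Ecm1, a secreted glycoprotein, stood at 263.0 and 356.8 CPM in low and 149.6 and 133.6 in high cells (-1.09 ± 0.20, adjusted p = 0.0109). Lgals1 (galectin-1, a sugar-binding protein) fell from 1920 and 2105 to 1328 and 1288 CPM (-0.54 ± 0.11, adjusted p = 0.0272), and Anxa2, Emp1 and Tppp3 had log2 differences of -0.89, -1.10 and -1.19. VSMC cells held 3278 and 3225 CPM of Lgals1 and 487.8 and 500.9 of Ecm1, above the Mono 1 levels, but 25.01 and 18.17 of Emp1, below them. These 5 genes were called as well without the stromal-rich cells, and Anxa2, Emp1 and Lgals1 lost the call when the haemoglobin-rich cells were left out too. Markers of T and NK cells reached at most 8.768 CPM and those of B cells at most 27.2 CPM in any group, and no marker of T, NK, B, neutrophil, mast, Schwann or fat cells had enough UMIs to be tested. None of 8 cell cycle genes or 12 iron and haem genes was called by edgeR or DESeq2 (0 and 1 had an unadjusted p under 0.05).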

How the data were processed

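The measurement was droplet single-cell RNA sequencing of 2 WT aortas (145000 reads per cell per the labels). The deposited table gives UMI counts for 16971 genes in each cell, which the submitters' processing notes credit to Cell Ranger 2.1; genome build, annotation and strand of counting are not given in the sources used here. The authors' cell type names and the libraries in the barcodes were taken as deposited.

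The members, gene lists and tests were chosen with earlier results of these data known. The score, its percentiles and the sums per library and group were computed in Python 3.11.15; genes were kept by filterByExpr, normalized by TMM and tested with edgeR 4.0.16 in R 4.3.3 (6 sums, residual degrees of freedom 2, library as a block, contrast high minus low, common dispersion 0.0103). CPM exclude the 4 score genes (except in the macrophage marker sums set against Mono 2 and VSMC) and carry no TMM factor: the median log2 difference of all genes tested was -0.05 and -0.12 in CPM by library (5 CPM added) and 0.00 in the fit. The libraries are the replicates (n = 2), cells are not, and p-values measure the spread of these sums only. Pairing comes from the design, since each library gives a high, a middle and a low sum of the same aorta. The log2 differences of genes with 3 or fewer UMIs in a group are replaced by a counting ratio (exact 95% interval). Named genes were the 15 called genes with the largest log2 difference in each direction and at least 50 UMIs, up to 4 per list by size, and a fixed set; Lgals1, Tmem176a, Tmem176b, Actr3, Vcam1, Bcl2a1b, Fcgrt, Mgl2, Ccl6, Fos, Lgmn, Cd86, H2-Oa, H2-Ob, H2-DMb2, Junb, Egr1, Dusp1, Flt3, Ccr7, Itgae, Ly6c2 and Chil3 were named after their values were seen. Doublets were marked with Scrublet and kept. In data simulated for this comparison (3774 genes), 49% of 2-fold and 94% of 4-fold changes were called, and 8 of 3576 unchanged genes. The simulated sums shared the common dispersion, and only genes with at least 50 UMIs over high and low sums were changed. Transcripts held mostly by single cells were not simulated, so these rates need not hold for such genes or for sparser ones. Alternatives cover normalization, filter, model, cut-offs, thinning and cells left out. A marker sum and an alternative that rest on a withheld item are not reported here.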

Additional observations from a re-analysis of the deposited data

How the results depend on the processing

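The count of 47 genes held within 1.5 times under 11 alternatives (35 to 63). It was 4 with DESeq2, 90 (51 higher, 39 lower) with no filter on low counts, 100 (50 and 50) with only the sums of high and low cells, 19 with 1 fit over all populations, 28 (21 and 7) with a median split, 13 in cells thinned to 1300 UMIs, 26 without haemoglobin-rich and stromal-rich cells together and 10 without the library block; 12 of the 13 in thinned cells and 25 of the 26 were among the 47. The paired design gives a library block, so the fit without the block ignores the pairing. Leaving out cells with 2 or more UMIs of other cell type markers kept 18 cells and called 0 of 179 genes (10 at an unadjusted p under 0.05). Leaving out cells with 2 or more cell cycle list UMIs removed 370 cells and called 27 (12 and 15). Neither bears on stability. Called genes in the lists numbered 31, and 3, 48, 14, 11, 18 and 7 with DESeq2, only high and low sums, all populations, thinned cells, both rich classes left out and no library block, 0 and 12 in the last 2 cell exclusions.

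Signs turned for these genes: Col3a1 with the outer 20% of cells on each side (0.034), without doublets (0.14), without stromal-rich cells (0.42) and without both rich classes (0.58); Col1a2 (0.34, 0.37) and Dcn (0.20, 0.15) in the last 2 of these; Hbb-bt (-0.005) and Hba-a1 (-0.008) without haemoglobin-rich cells; Hba-a1 (-4.97), Hbb-bs (-2.54), Lyve1 (0.43) and Mgl2 (-0.34) without cells with other cell type markers; and S100a6 (0.039), Dcn (0.38), Actr3 (-0.10) and Ccl6 (-0.12) without cells with cell cycle list UMIs. The cause was not tested. The log2 ratio of the score, high to low, was 6.53 (6.14 and 6.92 by library), 4.58 with a median split, 8.20 with the outer 20% and 5.42 without cells with cell cycle list UMIs, where the ratio of median UMIs per cell moved from -0.06 on the log2 scale (0.17 and -0.28 by library) to 0.47. With 1 library alone no residual degrees of freedom are left, so there is no count of calls. All 47 called genes had the direction of the fit in each library alone. The calls came from a fit to these same 2 libraries, so this is not a separate check. Not every gene named without a call had 1 direction in both libraries (Isg15: 1.89 and -0.20). Alternatives that leave out haemoglobin-rich, stromal-rich, proliferating or lymphoid cells were chosen after seeing the data. With 60 to 88 cells a sum, genes with few UMIs were mostly beyond the test.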
